A study of Mus musculus with 4 samples.

Results

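L5-S100b is the cluster of layer 5 excitatory neurons that the deposited annotation of the ventromedial prefrontal cortex (vmPFC) names after the gene S100b. Its members were taken as the cells with this cluster label, which were 954 of the 8210 excitatory neurons with a subtype. Unsorted mice 1, 2 and 3 gave 294, 191 and 191 of them, and the FAC-sorted pool of other mice gave 278. The study used MERGE-seq, in which retrograde viruses with a different barcode are injected into different targets of the same animal, so that the barcodes read in a single vmPFC neuron tell which targets its axon may reach. Male C57BL/6 mice received at 8 weeks of age 5 rAAV2-retro-EGFP viruses, 1 each in the agranular insular cortex (AI), the dorsomedial striatum (DMS), the mediodorsal thalamus (MD), the basolateral amygdala (BLA) and the lateral hypothalamus (LH). The vmPFC, which here is the prelimbic and infralimbic area, was dissociated without sorting from 3 mice, with 1 library each, and EGFP+ cells sorted from 3 other mice were pooled in 1 library, the sorted pool (FAC-sorted in the plots). All mice carried all 5 viruses, with EGFP driven by a short CAG promoter, and no uninjected animal was used here.

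Layer 5 of the cortex holds excitatory neurons of more than one projection class. Intratelencephalic neurons send axons within the cortex, to the striatum and to the amygdala, while extratelencephalic neurons send their main axon below the telencephalon, to the thalamus, hypothalamus and brainstem, and often leave collaterals in the striatum. S100b encodes a calcium-binding protein best known from astrocytes. Its level, like that of every other gene, was not analysed here, so the cluster label was not checked against its marker. The label matches 1 cluster of the annotation, and L5-Bcl6 is its layer 5 counterpart in the comparisons below. Retrograde AAV differs in uptake between neuron types and reaches only a part of the neurons that project to a target, so a neuron without a barcode is not shown to lack the projection.

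The 5 barcodes, on which every target call of L5-S100b rests, have 15 bases each. They are printed 5′ to 3′, and capitals mark bases that none of the other 4 barcodes has at the same position.
AI: CtgCAccgaCGcAtt
DMS: gaAggcAcagacTtt
MD: gttggcTgCAaTcCa
BLA: AagAcgccgTCGcaa
LH: TatTcgGAggacGaC
Each barcode differed from its nearest neighbour at 10 or more of the 15 positions. In L5-S100b neurons, the DMS barcode took 75.1% of the matched projectome reads, AI 11.3%, BLA 7.32%, MD 4.86% and LH 1.45%. Counted as unique molecular identifiers (UMIs, tags that mark single cDNA molecules), DMS had 109492 molecules, MD 33548, LH 23866, AI 23823 and BLA 13740. Over all libraries together, MD and LH thus ranked behind only DMS by molecules but behind all 3 other barcodes by reads. AI had more molecules than LH in unsorted mice 1 (5738 and 4062), 2 (4585 and 4133) and 3 (5072 and 4419). Only the sorted pool had more LH than AI molecules (11252 and 8428). In mouse 1, MD had fewer molecules than AI (4698) and more reads than BLA (37805 and 34763).

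L5-S100b made up 12.0% of the subtyped excitatory neurons of unsorted mouse 1 (95% interval, 10.8% to 13.4%), 8.90% of mouse 2 (7.73% to 10.2%) and 9.01% of mouse 3 (7.83% to 10.3%). In the sorted pool the share was 18.5% (16.5% to 20.5%), above every unsorted mouse. Intervals are exact (Clopper-Pearson) and reflect counting error alone. No cell barcode occurred in more than 1 library within L5-S100b, and 6 of its cell barcodes also occurred among annotated cells of another library.

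L5-S100b neurons were among the neurons with the most RNA. The median was 22044.5, 23618 and 25337 transcriptome UMIs in mice 1 to 3 and 32604.5 in the sorted pool, and this was the highest or second highest of the 7 clusters in each library. The median number of detected genes was 5758, 5941, 6085 and 6803 in the same order. Mitochondrial transcripts made up a median of 7.32%, 7.43% and 7.45% of the UMIs in the unsorted mice and 3.93% in the sorted pool. These values describe the clusters without a test, since the clusters were themselves made from the transcriptome.

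Unsorted mouse 1 had the most L5-S100b neurons of low depth. There, 57 of the 294 L5-S100b neurons (19.4%) had fewer than 12000 transcriptome UMIs, a limit chosen once the values were known. In mice 2 and 3 and the sorted pool the share was 8.90%, 6.81% and 3.96%. In mouse 1 the other layer 5 clusters had much the same share, with 16.7% of the L5-Bcl6 and 18.0% of the L5-Htr2c neurons, while all 6 other clusters together, most of them L6-Syt6 neurons, had 4.71%. Median values of the 57 neurons were 4487 transcriptome UMIs and 2415 genes, and 3 of them had a barcode above its threshold. Without all neurons below this limit, L5-S100b made up 10.4%, 8.47%, 8.68% and 18.5% of the neurons of the 4 libraries.

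Nearly every L5-S100b neuron carried some molecules of the DMS barcode. At least 1 DMS UMI was counted in 99.5% of the neurons, at least 1 MD UMI in 97.6%, LH in 97.2%, AI in 95.9% and BLA in 88.2%. The 9822 non-neuronal cells serve as a background. By the same recount they had at least 1 UMI in 95.1% for DMS, 66.4% for MD, 58.6% for LH, 41.0% for AI and 21.6% for BLA. Their median was 4114 transcriptome UMIs, against 25690 in L5-S100b. A single UMI was therefore not read as a projection, and the levels were compared instead.

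The DMS barcode had the highest level in L5-S100b in all 4 libraries. Its median was 45, 68 and 74 UMIs in mice 1 to 3 and 137 in the sorted pool. In the non-neuronal cells of the same libraries the median was 3, 5, 5 and 17. The MD barcode followed, with 11, 19 and 26 UMIs for mice 1 to 3 and 50 for the sorted pool. The LH barcode had 9.5, 17, 19 and 33, and the AI barcode had 6, 15, 19 and 21. BLA was lowest, with 2, 6, 7 and 11. For each of the 5 barcodes the medians were in the order mouse 1, mouse 2, mouse 3 and sorted pool. The projectome reads per recovered cell had the same order, with 2542, 4115, 4544 and 14639, and so had the median transcriptome UMIs. Calls with reads thinned to an equal number per recovered cell are given below.

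The upper tails did not follow the medians in every case. The 90th percentile of the AI barcode was 60.2, 55, 67 and 59.3 UMIs in the 4 libraries, so that the AI tail of mouse 1 was as high as that of the others although its median was the lowest. The 90th percentile of BLA was 10, 22, 42 and 35, and the highest single L5-S100b neuron had 463 BLA UMIs, in the sorted pool. For LH the highest neuron of mouse 1 had 49 UMIs and that of mouse 2 had 81, below the LH threshold of 103.

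**Figure D1:**
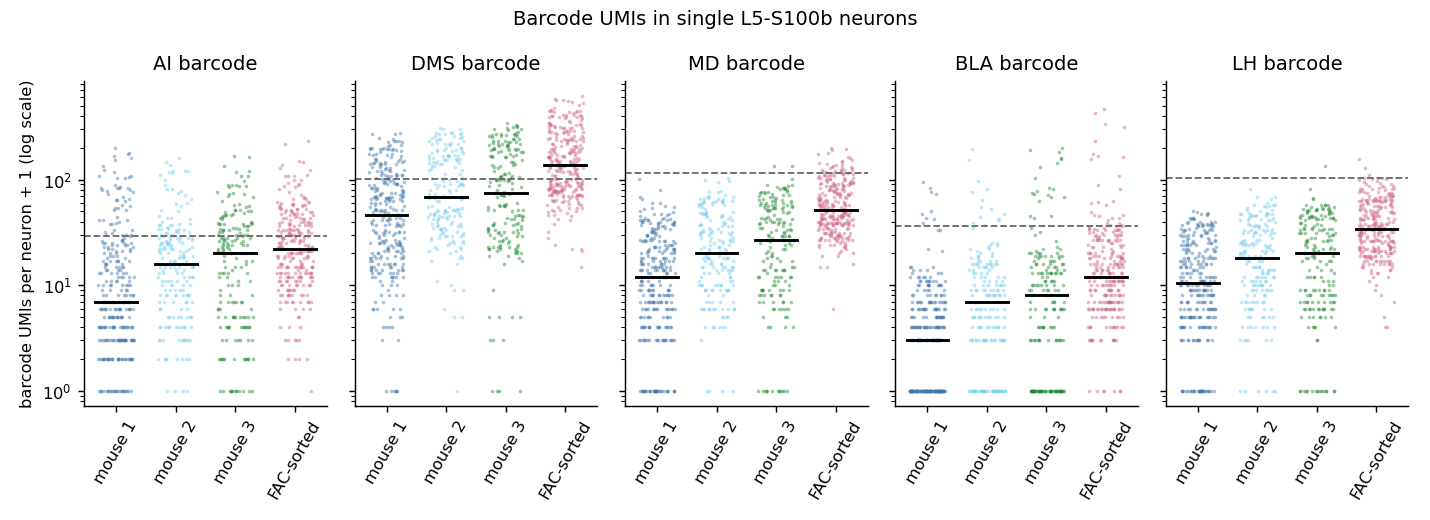
UMIs of each barcode in single L5-S100b neurons (points; log axis, 1 added to each count) of the 3 unsorted mice and the sorted pool. Black bars are medians and dashed lines the thresholds; DMS counts lie on both sides of their line in every library, while MD and LH counts of the unsorted mice lie almost wholly below theirs.

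A barcode was called valid when a neuron had more UMIs than the threshold built into the deposited matrix, namely AI above 28, DMS above 101, MD above 114, BLA above 35 and LH above 103. A neuron with at least 1 valid barcode is called barcoded. Of the L5-S100b neurons, 107 of 294 (36.4%, interval 30.9% to 42.2%), 93 of 191 (48.7%, 41.4% to 56.0%) and 107 of 191 (56.0%, 48.7% to 63.2%) were barcoded in mice 1 to 3. The mean of the unsorted mice was 47.0% ± 9.92 (SD, n = 3). In the sorted pool 192 of 278 neurons (69.1%, 63.3% to 74.4%) were barcoded, above every unsorted mouse, and 86 neurons sorted as EGFP+ had no valid barcode. The difference was 22.0 percentage points, and an exact one-sided permutation test of 1 library against 3 takes its smallest p, 0.25, whenever the single library is the highest, so it adds nothing to this order. When the reads were thinned to 2542 per recovered cell in every library, the barcoded share became 36.4%, 42.9% and 50.8% for mice 1 to 3 and 30.9% for the sorted pool, so the direction was turned. After this thinning the sorted pool had fewer reads per L5-S100b neuron than any unsorted mouse, so these shares are not at equal depth.

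With these thresholds, DMS was the target with the largest share of L5-S100b neurons. Its barcode was valid in 24.5%, 38.2% and 41.4% of the neurons of mice 1 to 3, or 34.7% ± 8.97 (SD, n = 3), and in 60.4% of those of the sorted pool (interval, 54.4% to 66.2%). AI came next, with 17.7%, 24.6% and 34.6%, or 25.6% ± 8.48, and 37.4% in the sorted pool (31.7% to 43.4%). BLA was valid in 3.06%, 7.33% and 10.5%, or 6.95% ± 3.72, and in 9.71% (6.50% to 13.8%). The order DMS, AI, BLA was the same in all 4 libraries, but it depended on the thresholds and the counting. A rule with thresholds set per 10000 transcriptome UMIs used 38.2 AI, 123 DMS, 47.2 MD, 15.4 BLA and 44.2 LH UMIs. At the L5-S100b median of 25690 transcriptome UMIs it was stricter than the deposited rule, by far the most for AI and DMS. With it, DMS was valid in 1.36%, 2.62%, 3.14% and 6.12% of the neurons of the 4 libraries, and AI in 5.44%, 4.71%, 3.66% and 1.44%. BLA was then the largest in mouse 2 (5.76%), mouse 3 (more than AI and DMS together) and the sorted pool (6.83%), so DMS was the largest in no library. In mouse 1, AI was also above DMS with UMIs of at least 2 reads (11.2% and 5.10%) and with thresholds 1.5 times as high (12.6% and 12.2%). With thresholds recomputed on non-neuronal cells alone, BLA was above AI in the sorted pool (54.3% and 45.3%). With reads thinned to 2542 per recovered cell, DMS was valid in 24.5%, 33.5%, 34.0% and 22.7% and AI in 17.7%, 14.1%, 19.9% and 7.55%, so the sorted pool had the lowest share of both. It also had the fewest reads per L5-S100b neuron after this thinning.

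MD and LH were rarely valid in L5-S100b with these thresholds. No MD call was made in 294 and 191 neurons of mice 1 and 2, which allows shares of up to 1.02% and 1.57%, and 2 of 191 neurons of mouse 3 had one. In the sorted pool MD was valid in 29 of 278 neurons (10.4%, 7.10% to 14.6%), so 29 of the 31 MD calls came from 1 library. LH was valid in 4 neurons in all, 1 of mouse 3 and 3 of the sorted pool, and in none of mice 1 and 2, which allows the same upper limits as for MD. How low these shares were depended on the thresholds and the counting, more in some libraries than in others. The study took the higher value from non-neuronal cells and from EGFP-negative cells of the sorted pool. Recomputed on non-neuronal cells alone, of which 73 of 9822 came from the sorted pool, they gave MD shares of 0.680%, 3.66%, 10.5% and 33.1% in the 4 libraries. LH shares were then 3.74%, 16.2%, 23.6% and 40.3%. With thresholds multiplied by 0.5 the sorted pool had 42.8% for MD and 29.5% for LH, while mouse 1 had 2.04% and 0%. In the other direction, the MD share of the sorted pool was 1.80% with thresholds 1.5 times as high. No L5-S100b neuron of any library was MD-valid with thinned reads or with UMIs of at least 2 reads. These 2 counts can only lower the UMI numbers and were held to unchanged thresholds, so fewer calls were built into them. Of the MD molecules of L5-S100b, 52.9% had a single read. With shared UMIs given to 1 barcode (below) and thresholds recomputed for that count, MD was valid in 0%, 0%, 1.05% and 4.68%. LH was then valid in 1.02%, 1.57%, 1.57% and 12.2%.

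Many calls of L5-S100b were only just valid. Of the 31 valid MD counts, 26 (83.9%) were at most 1.5 times their threshold, as were 113 of 269 AI counts (42.0%), 26 of 70 BLA counts (37.1%) and 119 of 392 DMS counts (30.4%). For DMS this share was 50.0% in mouse 1 and 28.8%, 24.1% and 25.6% in mice 2 and 3 and the sorted pool. Valid DMS counts had a median of 191 UMIs, valid MD counts 133, BLA 69.5 and AI 48. On the other side, 84.5% of the sorted-pool neurons that were not DMS-valid had more than 0.5 times the threshold, against 29.3%, 35.6% and 29.5% in the unsorted mice. With all thresholds multiplied by 0.5, 96.0% of the sorted-pool L5-S100b neurons were barcoded, and with thresholds 1.5 times as high 55.0%.

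The study set L5-S100b against L5-Bcl6 within layer 5, and the targets of the 2 clusters differed most at LH, AI and DMS. AI was valid in 17.7%, 24.6%, 34.6% and 37.4% of the L5-S100b neurons of the 4 libraries and in 1.11%, 5.00%, 8.33% and 13.3% of the L5-Bcl6 neurons. DMS was valid in 5.56%, 11.7%, 16.7% and 41.7% of L5-Bcl6, so L5-S100b was higher for both targets in 4 of 4 libraries. The mean difference was 21.6 percentage points ± 4.35 (SD, n = 4) for AI and 22.2 ± 3.98 for DMS. These 4 libraries are 3 single unsorted mice and the sorted pool, so this SD is not a spread among mice. LH went the other way. It was valid in 24 of 90, 10 of 60, 9 of 60 and 22 of 60 L5-Bcl6 neurons, against 0, 0, 0.524% and 1.08% of L5-S100b. The mean difference was -23.3 percentage points ± 9.73, and L5-S100b was lower in 4 of 4 libraries. BLA was higher in L5-S100b in 4 of 4 libraries, by a mean of 6.39 percentage points ± 2.26. Each of these 4 differences had p = 0.125 when the signs of the 4 library differences were flipped in all ways (exact two-sided permutation test), the smallest p it can give, and 0.208 after Benjamini-Hochberg adjustment over the 15 differences tested. For MD the difference was -1.11, -5.00 and -3.95 percentage points for mice 1 to 3 and 0.432 for the sorted pool (exact p = 0.25, adjusted 0.375). The transcriptome reference of the study held the barcodes as genes, and the sources used here do not say whether these were left out of the clustering.

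Transcriptome depth had no fixed order between L5-S100b and L5-Bcl6. Their medians were 22044.5 and 21227 transcriptome UMIs in mouse 1, 23618 and 23948 in mouse 2, 25337 and 24225.5 in mouse 3 and 32604.5 and 29807 in the sorted pool. Their summed barcode counts had medians of 87.5 and 94.5 UMIs in mouse 1, 150 and 108.5 in mouse 2, 184 and 100.5 in mouse 3 and 269.5 and 259.5 in the sorted pool, so L5-S100b was higher in 3 of 4 libraries.

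L6-Npy and L2/3-Rorb shared the leading targets of L5-S100b. Against L6-Npy, L5-S100b was higher in 4 of 4 libraries for AI, by a mean of 10.0 percentage points ± 6.73 (SD, n = 4), for DMS, by 13.3 ± 6.34, and for BLA, by 4.53 ± 3.44, each with exact p = 0.125 and adjusted p = 0.208. The BLA difference was 0.0424 percentage points in mouse 1 and between 3.94 and 8.07 in the other 3 libraries. L6-Npy had lower transcriptome depth than L5-S100b in every library, with medians of 18712 to 25420 UMIs, and the part of this in the differences was not tested. Among neurons of both clusters within the quartiles of L5-S100b depth, the mean differences were 1.05 percentage points for AI, 8.86 for DMS and 2.98 for BLA, and with thresholds set per 10000 transcriptome UMIs they were 0.175, 0.572 and 3.41. The latter rule was much stricter for AI and DMS than the deposited one at this depth.

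Against L2/3-Rorb the differences were small. AI was valid in 13.6%, 23.4%, 30.2% and 29.4% of the L2/3-Rorb neurons, and L5-S100b was higher in 4 of 4 libraries by a mean of 4.45 percentage points ± 2.79 (SD, n = 4; exact p = 0.125, adjusted 0.208). DMS was valid in 29.3%, 26.2%, 38.9% and 63.3% of L2/3-Rorb, and L5-S100b was higher in 2 libraries and lower in 2, with a mean difference of 1.71 ± 7.55 (exact p = 0.875, adjusted 1). BLA was valid in 2.14%, 3.74%, 2.38% and 6.42% of L2/3-Rorb and was higher in L5-S100b in 4 of 4 libraries, by 3.97 ± 2.99 (exact p = 0.125, adjusted 0.208). For MD and LH both clusters were near 0 in the unsorted mice. In the sorted pool MD was valid in 10.4% of the L5-S100b and 9.17% of the L2/3-Rorb neurons, and LH in 1.08% and 2.75%. With thresholds set per 10000 transcriptome UMIs, the AI difference to L2/3-Rorb turned to -2.89 and the DMS difference to -4.02. At the depth of these clusters that rule was much stricter for AI and DMS than the deposited one.

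**Figure D2:**
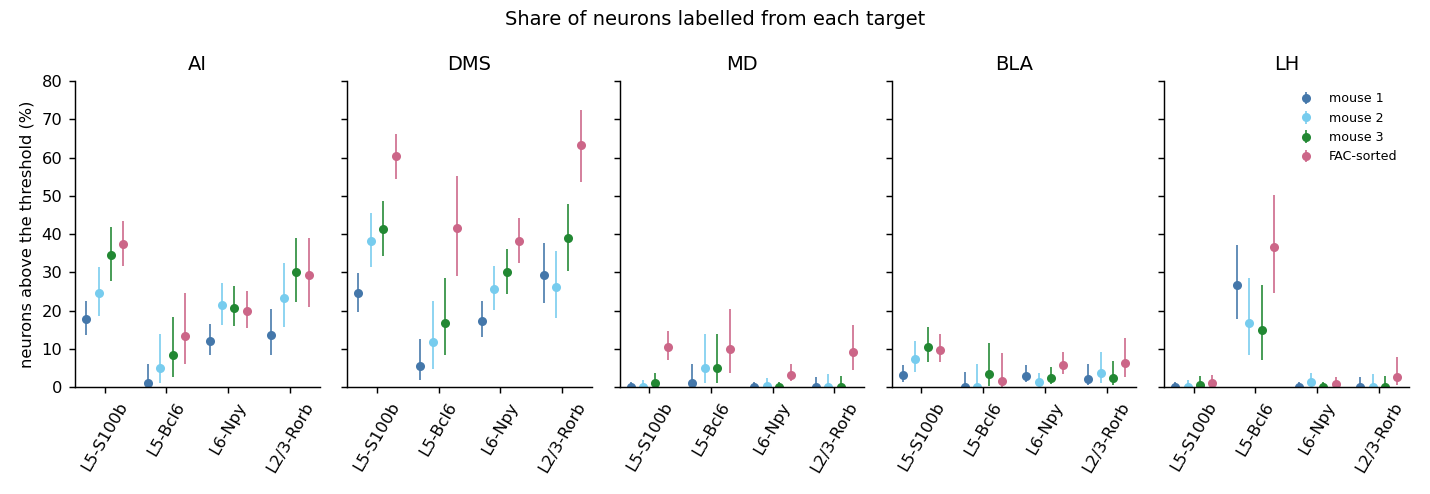
Share of neurons with a valid barcode of each target (%) in L5-S100b and the 3 comparison clusters, by library; points are shares and bars exact 95% binomial intervals. L5-S100b shares AI and DMS with L6-Npy and L2/3-Rorb, and its LH shares are at most 1.08% where L5-Bcl6 has at least 9 LH neurons in each library.

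Over all 6 other clusters together, 14.4%, 17.0% and 16.7% of the neurons were barcoded in mice 1 to 3, and 47.9% in the sorted pool. L5-S100b was higher in 4 of 4 libraries, by 22.0, 31.7, 39.3 and 21.1 percentage points, a mean of 28.5 ± 8.64 (SD, n = 4; exact two-sided sign-flip p = 0.125). Most of these other neurons (4819 of 7256) were L6-Syt6 neurons, with barcoded shares of 9.89%, 12.2%, 10.7% and 45.2%. L5-S100b had the highest barcoded share of the 7 clusters in 3 libraries and the second highest in mouse 1. L2/3-Rorb was close, with 38.6%, 40.2%, 48.4% and 67.0%, against 36.4%, 48.7%, 56.0% and 69.1% in L5-S100b. A high barcoded share was thus not particular to L5-S100b. With thresholds set per 10000 transcriptome UMIs the mean difference was 0.774 percentage points, and L5-S100b had barcoded shares of 9.18%, 12.6%, 16.8% and 14.7%. At the depth of L5-S100b this rule was stricter than the deposited one, mostly for AI and DMS. The value is therefore not a correction for depth alone.

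Within L5-S100b itself, barcoded neurons had more transcriptome UMIs. In mouse 1 the median was 19312 UMIs in neurons without a valid barcode, 24242.5 with 1 target and 28157 with 2 or more. In mouse 2 it was 22082.5, 25195 and 26862, in mouse 3 23468.5, 26507 and 26805.5, and in the sorted pool 28692, 31438.5 and 37233. When the neurons of each library were split into 3 equal parts by transcriptome UMIs, the barcoded share from the lowest to the highest part was 9.18%, 46.9% and 53.1% in mouse 1. It was 36.5%, 42.2% and 67.2% in mouse 2, 38.1%, 57.8% and 71.9% in mouse 3 and 50.0%, 76.3% and 80.6% in the sorted pool. The share was thus higher in each deeper part in all 4 libraries.

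**Figure D3:**
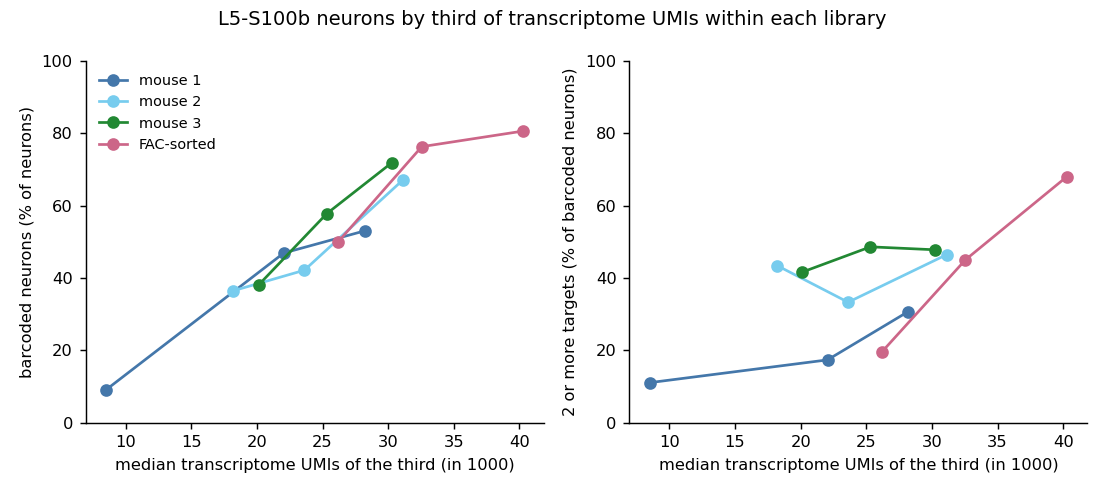
Barcoded share of L5-S100b neurons (left, % of neurons) and share of barcoded neurons with 2 or more targets (right, %) in 3 equal parts by transcriptome UMIs within each library, plotted at the median UMIs of the part (in units of 1000). Barcoded shares go from between 9.18% and 50.0% in the lowest parts to between 53.1% and 80.6% in the highest; in the right panel the share goes up with depth in mouse 1 and the sorted pool and has no steady order in mice 2 and 3.

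Of the 499 barcoded L5-S100b neurons, 293 (58.7%) had 1 valid target, 158 (31.7%) had 2, 37 (7.41%) had 3, 9 had 4 and 2 had all 5. All 11 neurons with 4 or 5 targets came from the sorted pool. Neurons with the highest barcode counts were removed before deposit. The highest summed count left in L5-S100b was 400, 480 and 527 UMIs in mice 1 to 3 and 1001 in the sorted pool. A neuron with many valid barcodes needs a high sum, and the part of this limit in the number of targets per library was not tested. A neuron with more than 1 valid barcode is called collateral. Collateral neurons were 25 of 107 barcoded neurons in mouse 1 (23.4%, interval 15.7% to 32.5%), 39 of 93 in mouse 2 (41.9%, 31.8% to 52.6%) and 50 of 107 in mouse 3 (46.7%, 37.0% to 56.6%), a mean of 37.3% ± 12.3 (SD, n = 3). In the sorted pool they were 92 of 192 (47.9%, 40.7% to 55.2%). With reads thinned to 2542 per recovered cell, the collateral share was 23.4%, 20.7% and 22.7% for mice 1 to 3 and 10.5% for the sorted pool, which was then the lowest. The sorted pool also had the fewest reads per L5-S100b neuron after this thinning. In the other clusters together the collateral share was 9.06%, 25.9%, 41.3% and 45.4%. L5-S100b was higher in 4 of 4 libraries, by a mean of 9.57 percentage points ± 6.61 (SD, n = 4; exact two-sided sign-flip p = 0.125). Among the 6 single clusters with barcoded neurons in the unsorted mice (L5-Htr2c had none there, and 1 in the sorted pool) it ranked first in mice 1 and 2 and second in mouse 3, and it was behind 2 clusters in the sorted pool. L5-Bcl6 was above it in mouse 3, with 8 of 16 barcoded neurons, and in the sorted pool, with 20 of 33 (60.6%), where L6-Syt6 had 51.8%. From the lowest to the highest of the 3 parts by transcriptome UMIs, the collateral share of L5-S100b was 19.6%, 45.1% and 68.0% in the sorted pool and 11.1% (1 of 9 neurons), 17.4% and 30.8% in mouse 1. It had no such order in mouse 2, with 43.5%, 33.3% and 46.5%, or in mouse 3, with 41.7%, 48.6% and 47.8%.

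Of 31 possible combinations of targets, 13 occurred in L5-S100b, and 7 of them had at least 10 neurons and held 479 of the 499 barcoded neurons. DMS alone was the most frequent over all libraries, with 47, 36 and 32 neurons in mice 1 to 3 and 76 in the sorted pool. AI and DMS together had 22, 29, 36 and 50 neurons, which were 20.6%, 31.2%, 33.6% and 26.0% of the barcoded neurons. AI alone had 29, 14, 17 and 20 neurons. In mouse 3, AI and DMS together were more frequent than DMS alone, and in mouse 1 AI alone was more frequent than AI and DMS together. In mouse 2 and the sorted pool the order was DMS, then AI and DMS, then AI.

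Combinations with BLA were less frequent. BLA alone had 6, 4, 8 and 4 neurons in the 4 libraries, AI, DMS and BLA had 1, 2, 9 and 8, and DMS and BLA had 2, 6, 0 and 5. The combination AI, DMS and MD had 1 neuron in mouse 3 and 15 in the sorted pool. The other 6 combinations held 20 neurons. In the deposited counts no L5-S100b neuron had MD alone or LH alone. All 31 MD-valid neurons were also DMS-valid and 27 were also AI-valid, and all 4 LH-valid neurons were also valid for MD and DMS. Other clusters had the same pattern for MD. In L2/3-Rorb all 10 MD-valid neurons, all of the sorted pool, were also AI- and DMS-valid. Of the 10 MD-valid L6-Npy neurons, 10 were also DMS-valid and 9 also AI-valid. In L5-Bcl6, LH alone was found in 21, 6, 2 and 6 neurons of the 4 libraries.

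**Figure D4:**
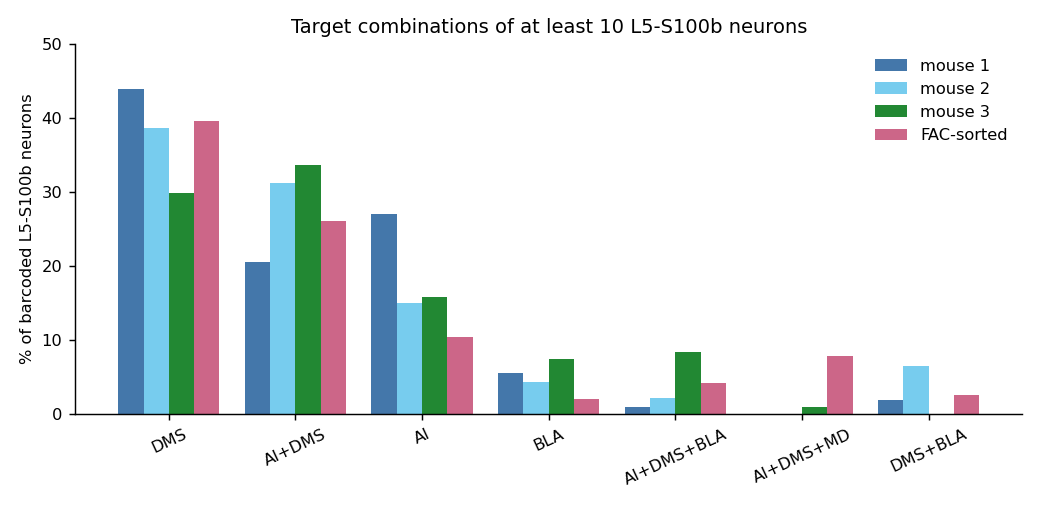
Share of barcoded L5-S100b neurons (%) with each of the 7 target combinations of at least 10 neurons, as bars for the 3 unsorted mice and the sorted pool. DMS, AI with DMS, and AI make up most neurons in every library, and AI with DMS and MD is found almost only in the sorted pool.

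In the deposited counts, AI and DMS labels occurred together in L5-S100b more often than their single shares would give, which did not hold in every library once shared UMIs were given to 1 barcode (below). With independent labels 12.7, 18.0, 27.3 and 62.8 neurons would be expected to have both in the 4 libraries, and 23, 31, 46 and 84 had both, other targets allowed. The ratio was 1.81, 1.73, 1.69 and 1.34, and it was also above 1 in every library in L6-Npy (1.44 to 2.31) and L2/3-Rorb (1.38 to 1.83). Of the AI-valid neurons 44.2%, 66.0%, 69.7% and 80.8% were also DMS-valid, and of the DMS-valid neurons 31.9%, 42.5%, 58.2% and 50.0% were also AI-valid. In each library the deepest of the 3 parts by transcriptome UMIs had the highest share of both labels, and the part of depth in these ratios was not tested.

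The counts of the 5 barcodes in single L5-S100b neurons followed each other. Spearman's rho between DMS and MD counts was 0.92, 0.91, 0.93 and 0.89 over the 294, 191, 191 and 278 neurons of the libraries, and between DMS and LH counts 0.90, 0.91, 0.91 and 0.90. Between AI and DMS it was 0.76, 0.75, 0.75 and 0.60. These values describe neurons that share a library and differ in depth. In neurons with more than 20 DMS UMIs, the LH count was a median of 19.4%, 20.4%, 19.9% and 22.7% of the DMS count in the 4 libraries, and the MD count 22.0%, 25.3%, 28.6% and 37.8%. The ratio of LH to DMS counts was thus close in all 4 libraries in the deposited counts, although few or no neurons were LH-valid.

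Many UMIs were counted for more than 1 barcode. In L5-S100b, 41.7%, 43.3%, 47.0% and 34.1% of the molecules of the 4 libraries had a UMI that was found with a second barcode in that neuron too, and the deposited tables count such a UMI once for each barcode. The share was lowest for DMS, with 23.3% over all libraries, and was 52.1% for AI, 53.3% for BLA, 57.9% for MD and 67.6% for LH. A barcode was called second for a UMI where it did not have the most reads for it alone. MD was second in 54.3% of its molecules and LH in 66.2%, against 6.64% for DMS. Where another barcode had more reads, that barcode was DMS for 79.2% of such MD molecules, 76.4% of LH, 81.6% of BLA and 86.8% of AI molecules. A barcode with the most reads for a shared UMI, ties included, had a median of 188 reads in L5-S100b where it was DMS. This median was 167 where it was BLA and 144 where it was AI, and a second barcode had a median of 2. Where MD had the most reads or tied, the median was 65, 136.5 and 118.5 reads in mice 1 to 3 and 3 in the sorted pool. For LH it was 2, 3, 87 and 1 in the 4 libraries. A barcode that leads a shared UMI alone has at least 2 reads, so the low medians do not describe leading barcodes alone. The barcodes differ at 10 or more positions, and reads were matched with at most 2 mismatches. How a UMI came to be read with more than 1 barcode was not tested.

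Giving each shared UMI only to the barcode with the most reads, and dropping ties, left the barcoded share of L5-S100b near its value and changed the combinations. With the same thresholds, 484 neurons in place of 499 were barcoded. DMS-valid neurons numbered 366 in place of 392, BLA-valid 54 in place of 70 and AI-valid 142 in place of 269. MD-valid neurons numbered 3 in place of 31, all 3 with DMS and in the sorted pool. LH-valid neurons numbered 1 in place of 4, and this neuron, of mouse 3, had LH alone. Collateral neurons were 79 of the 484 (16.3%), with 3 neurons of 3 targets and none above. This put the collateral share at 13.9%, 13.5% and 11.4% for mice 1 to 3 and at 21.7% for the sorted pool. These thresholds had been set on the deposited counts. Recomputed for this count on non-neuronal cells alone, the AI threshold was 11 in place of 28. AI was then valid in 21.8%, 25.1%, 23.6% and 33.5% of the neurons of the 4 libraries. The same rule on the deposited counts gave 21.4%, 34.6%, 42.4% and 45.3%, and the deposited thresholds gave 17.7%, 24.6%, 34.6% and 37.4%.

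By the leading-barcode count with the deposited thresholds, the combination AI and DMS had 13, 7, 7 and 28 neurons in the 4 libraries. The deposited counts gave 22, 29, 36 and 50. By the leading-barcode count, AI alone had 28, 14, 17 and 21. DMS alone had 52, 58, 62 and 119. Of the 137 neurons called AI and DMS in the deposited counts, 59 (43.1%) kept a valid AI count and 128 (93.4%) a valid DMS count. Their median AI count went from 44 to 22 UMIs and their median DMS count from 231 to 219. Of the 80 neurons with AI alone, 71 kept a valid AI count. The kept share differed between libraries, with 72.7% of the AI and DMS neurons keeping their AI label in mouse 1, 31.0% in mouse 2, 22.2% in mouse 3 and 52.0% in the sorted pool.

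With shared UMIs given to the leading barcode, Spearman's rho between AI and DMS counts in L5-S100b was 0.26, 0.03, 0.19 and -0.03 in the 4 libraries. Between DMS and MD it was 0.51, 0.39, 0.45 and 0.55, and between DMS and LH 0.38, 0.35, 0.18 and 0.33, lower than in the deposited counts but above 0 in every library. The LH count was then a median of 5.13%, 6.25%, 5.70% and 12.4% of the DMS count. The number of neurons with both labels was 13, 7, 8 and 30, against 9.20, 7.95, 10.2 and 29.7 expected from independent labels, a ratio of 1.41, 0.881, 0.786 and 1.01. The collateral share was higher in L5-S100b than in the other clusters by this count as well, while with UMIs of at least 2 reads the mean difference was -0.677 percentage points. The thresholds recomputed on non-neuronal cells for the leading-barcode count were added once the values were known. With them, the collateral share of L5-S100b was 25.5%, 30.6%, 29.3% and 53.3%. Both AI and DMS, other targets allowed, were then valid in 20.3%, 18.5%, 18.7% and 28.0% of the barcoded neurons. In the deposited calls these shares were 21.5%, 33.3%, 43.0% and 43.8%.

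**Figure D5:**
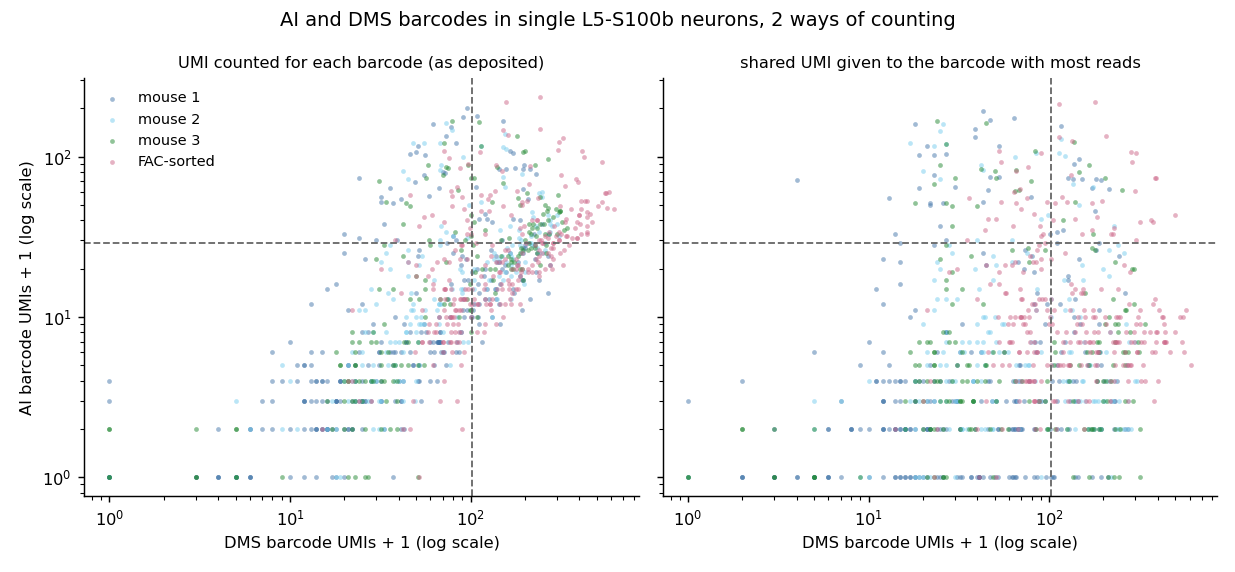
AI against DMS barcode UMIs in single L5-S100b neurons (log axes, 1 added), coloured by library, with the deposited counts (left) and with each shared UMI given to its most-read barcode (right); dashed lines are the thresholds. On the left the points form a diagonal band that crosses the AI line at high DMS counts, and on the right neurons with high DMS counts lie mostly below the AI line.

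The contrast with L5-Bcl6 was recomputed under every alternative. For all 5 targets, the mean difference between L5-S100b and L5-Bcl6 kept its sign under all 17 alternatives. The LH difference ranged from -46.0 to -3.75 percentage points, the AI difference from 3.12 to 24.0 and the DMS difference from 3.03 to 30.4.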

How the data were processed

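The deposited files hold projectome reads, barcode counts and cell annotation. The deposited UMI counts per cell and barcode were made by the authors with 2 mismatches allowed and are not normalised. The counts of transcriptome UMIs and genes and the percent of mitochondrial transcripts per cell were deposited by the authors, who used Cell Ranger and the mm10 build per the labels. The authors removed cells with very many genes or barcode UMIs as possible doublets, and no further doublet step was run. In the series-wide tables, 24 further columns were left unused.

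Cells were joined by library and cell name. Thresholds were read from the deposited matrix, and all validity calls equalled the deposited ones. A recount from the reads with up to 2 mismatches equalled the deposited table in 4621 of 4770 entries of L5-S100b, and the remaining 149, with a single recounted UMI, stood at 0 in that table. Shares were taken per library and libraries weighted equally. Libraries, not cells, were the unit of every test. An SD or test over 4 libraries mixes 3 single unsorted mice with the sorted pool of 3 mice, so it does not measure a spread among mice. Differences within library were tested by flipping the signs of the 4 library differences in all ways (exact, two-sided), where the smallest p is 0.125 (0.25 with 3 libraries), so that no test here can reach 0.05. The 15 target differences were adjusted together. Beside a count of 0, the share that 3 counts would give is printed as the upper limit. Reads without their own molecule are not independent, so intervals cover counting error only.

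The named items were all 5 targets, combinations of at least 10 L5-S100b neurons and 3 comparison clusters, with the others in ranges. The members and lists were chosen with earlier results of these data known. The 17 alternatives were 4 other threshold rules, 4 other counting rules (exact matches, UMIs of at least 2 reads, shared UMIs to the leading barcode, thinned reads), pooling, leaving out each of the 4 libraries, and 1 restriction of neurons by depth, plus 3 added after the values were seen. These 4 counting rules can only lower the recounted UMI numbers and were held to the deposited thresholds. In a check of the code, 7 of 7 known quantities were recovered, some of them smallest p-values that used no reads. The simulated reads gave every true molecule more reads than any false one. The check therefore does not show how well the counting rules resolve shared UMIs in these data. Python 3.11.15 with numpy, pandas and scipy was used.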

Additional observations from a re-analysis of the deposited data

Results flagged for a closer look

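The MD share of L5-S100b minus that of L5-Bcl6 was below 0 in all 3 unsorted mice, with -1.11, -5.00 and -3.95 percentage points, and above 0 in the sorted pool, with 0.432. The sign in the sorted pool was opposite to that of every unsorted mouse, but its 2 shares were nearly equal. They were 10.4% (interval 7.10% to 14.6%) in L5-S100b and 10.0% (3.76% to 20.5%) in L5-Bcl6. In mouse 1 the difference came from 1 of 90 L5-Bcl6 neurons. The difference between the sorted and unsorted libraries was not tested. It rests on 29 of 278 L5-S100b and 6 of 60 L5-Bcl6 neurons of the sorted pool, and when shared UMIs were assigned to the most-read barcode, L5-S100b kept 3 of its 29 calls and L5-Bcl6 kept 4 of its 6. By that count L5-S100b had the lower MD share in the sorted pool too, so the direction was turned to that of the unsorted mice. With thinned reads or UMIs of at least 2 reads, no L5-S100b neuron of the sorted pool was MD-valid. Both counts can only lower the UMI numbers and were held to unchanged thresholds, so fewer calls were built into them.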

How the results depend on the processing

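Of 304 values of the 18 differences under 17 alternatives, 276 kept their direction. No test here can reach 0.05, so this says nothing of significance. The barcoded share of L5-S100b minus that of the other clusters kept its direction under all 17, between 0.774 percentage points (thresholds per 10000 transcriptome UMIs) and 31.9.

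The difference to L2/3-Rorb for LH was 4.99 with thresholds recomputed on non-neuronal cells, 1.78 with thresholds times 0.5, 0.0899 with thresholds times 1.5, 0.383 with thresholds per transcriptome UMI, 0.171 with exact matches, 0.131 with shared UMIs given to the leading barcode, 1.96 with thresholds recomputed for that count, and 0 with UMIs of at least 2 reads or thinned reads. The difference to L6-Npy for LH was 10.5, 6.19 and 0.108 with thresholds recomputed on non-neuronal cells, times 0.5 and per transcriptome UMI, 1.27 with recomputed thresholds on the leading-barcode count, and 0 with UMIs of at least 2 reads. The MD difference was 0 to both L6-Npy and L2/3-Rorb with UMIs of at least 2 reads, -0.105 to L6-Npy and 0 to L2/3-Rorb with thinned reads, and -0.224 to L2/3-Rorb with thresholds per transcriptome UMI. That last rule also turned the differences to L2/3-Rorb for AI to -2.89 and for DMS to -4.02, and the collateral difference to -0.546. The collateral difference was -0.677 with UMIs of at least 2 reads. The DMS difference to L2/3-Rorb was -0.930 without the neurons of the highest transcriptome UMIs. The sorted-pool minus unsorted barcoded share was -12.4 with thinned reads, which by construction lowers the depth of the sorted pool most. This thinning left the L5-S100b neurons of the sorted pool with fewer reads each than those of any unsorted mouse.

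Leaving out each library in turn gave -1.73 to 3.88 for the DMS difference to L2/3-Rorb (below 0 without mouse 2), -0.299 to 0.294 for LH to L6-Npy (above 0 without mouse 2), and -0.558 to 0.175 for LH to L2/3-Rorb (above 0 without the sorted pool). All other differences kept their sign. Without the sorted pool the MD difference to L6-Npy was 0.210 in place of 1.95. No paired analysis was possible because the sorted pool and the unsorted libraries come from different mice, and their numbers tie no samples together. The causes of these changes were not tested, except where stated. The sorted pool has no replicate, and neurons with the highest barcode counts were removed before deposit.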
